A study of Homo sapiens with 8 samples.

Results

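Aminoacyl-tRNA synthetases are the enzymes that join each amino acid to its transfer RNA, the step that feeds translation. Human cells keep 1 set in the cytosol and another, encoded by separate nuclear genes, for the ribosomes of the mitochondria. By name, 36 synthetase genes were chosen for description out of 18892 genes in the RNA sequencing table, 20 of them cytosolic and 16 mitochondrial (symbols ending in ARS2). GARS and KARS are counted as cytosolic, although each also yields the mitochondrial enzyme for its amino acid. All 36 passed the filter on low values, against 11833 genes of the whole table.

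The cells were C4-2, a human prostate cancer cell line of the LNCaP lineage, grown in RPMI medium with serum and given no further treatment. Of the RNA libraries, 2 came from cells with a short hairpin RNA against CDCA8 (shCDCA8), which encodes a subunit of the chromosomal passenger complex, and 2 from cells with a control hairpin (shCTRL). The labels name a single hairpin against CDCA8 and no line with CDCA8 restored, so knockdown of CDCA8 and other actions of that hairpin cannot be told apart. The small RNA libraries of the series hold no synthetase row and were not used here.

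Several cytosolic synthetase genes are textbook targets of ATF4, a transcription factor at the centre of the cell's answer to amino acid shortage. ATF4 is translated when the kinase GCN2 senses uncharged transfer RNA, and it binds C/EBP-ATF response elements. Mitochondrial synthetases are imported after translation in the cytosol and serve the few proteins that the mitochondrial genome encodes. Eight-letter matches to the core of this element (TGATGNAA, either strand) were looked for in RefSeq promoters (GRCh38.p14), each running from 250 bases before to 50 bases after the gene's start. Of the 36 genes, 30 had a promoter in that table, and DARS, LARS, VARS, YARS, AARS2 and VARS2 did not.

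A match was present in 6 of 16 cytosolic and in 1 of 14 mitochondrial promoters, against 3.62% of all 35116 promoters. The matches are shown because the genes that hold them did not all change alike. Each line gives 30 bases on the gene's own strand with the element in capitals.
AARS, chr16:70289675-70289704, minus strand: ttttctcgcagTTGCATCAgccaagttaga
CARS, chr11:3057407-3057436, minus strand: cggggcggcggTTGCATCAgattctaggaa
IARS, chr9:92293692-92293721, minus strand: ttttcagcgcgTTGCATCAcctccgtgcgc
MARS, chr12:57488053-57488082, plus strand: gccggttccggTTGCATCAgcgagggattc
NARS, chr18:57621804-57621833, minus strand: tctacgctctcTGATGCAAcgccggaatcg
TARS, chr5:33440956-33440985, plus strand: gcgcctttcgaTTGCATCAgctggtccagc
YARS2, chr12:32756076-32756105, minus strand: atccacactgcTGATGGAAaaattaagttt

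All 6 cytosolic matches were the stricter form TGATGCAA or its reverse complement, which 0.866% of all promoters held, and the YARS2 match was not. Counted from the start site, the element began at base -187 in AARS, -13 in IARS, -4 in MARS, -2 in CARS, 3 in TARS and 15 in NARS. Within the 250 bases before the start alone, 2 cytosolic promoters (AARS and IARS) and 1 mitochondrial promoter (YARS2) held a complete match. The E-box CACGTG, a site of MYC and related factors, was found in IARS, CARS2, EARS2 and MARS2, in 7.26% of all promoters, and overlapped no match of the other motif. The upstream 250 bases of AARS show the element within its promoter, and those of GARS, the synthetase gene with the largest fall below, hold no match to either motif.
AARS, chr16:70289507-70289756, minus strand: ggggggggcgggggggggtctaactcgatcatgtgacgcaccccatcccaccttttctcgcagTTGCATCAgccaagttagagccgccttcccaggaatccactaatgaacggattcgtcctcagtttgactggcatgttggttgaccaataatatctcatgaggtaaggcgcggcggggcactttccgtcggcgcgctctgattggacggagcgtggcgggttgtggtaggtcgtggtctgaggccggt
GARS, chr7:30594485-30594734, plus strand: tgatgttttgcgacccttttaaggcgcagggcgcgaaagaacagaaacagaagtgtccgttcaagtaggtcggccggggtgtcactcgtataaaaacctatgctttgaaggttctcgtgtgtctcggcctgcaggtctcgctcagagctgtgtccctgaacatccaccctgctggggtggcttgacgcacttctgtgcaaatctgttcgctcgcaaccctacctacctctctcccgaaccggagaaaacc

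Values are RPM, read counts that the authors scaled to a common library total. The gene rows held 17406425 and 18931009 reads in the shCDCA8 libraries and 21920570 and 20380764 reads in the shCTRL libraries, and each synthetase had between 222 and 13179 reads in a library. These rows took 33.3% and 34.2% of the total in shCDCA8 and 41.1% and 43.6% in shCTRL. The whole table was shifted with this share, to a median log2 fold change of -0.27 over all 11833 kept genes. The part of this share in the results was not tested, and counts of calls are therefore also given after median-ratio scaling, which brings that median to 0.01. CDCA8 itself had 3.98 and 3.94 RPM in shCDCA8 and 14.2 and 16.5 RPM in shCTRL (log2 fold change -1.72 ± 0.135, SE, limma adjusted p = 7.86e-07). Nothing says that the 2 libraries of a group came from separate cultures, so p-values speak of these libraries only. The spread behind each limma SE and p-value is not the gene's own alone. It is drawn towards that of genes at a similar level. In bulk RNA, fewer cells of a kind and less RNA per cell cannot be told apart. Genes were not ranked against each other by level, since RPM is not corrected for length.

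The cytosolic synthetases split into a set that fell and a set that did not. GARS, CARS, WARS, MARS, SARS, YARS, VARS, IARS and AARS fell, to between 25.1% and 63.1% of their shCTRL level. The other 11 had log2 fold changes at or above 0.04, and RARS, FARSB, NARS and TARS among them rose. No cytosolic gene lay in the gap of 0.68 on the log2 scale between AARS (-0.65) and HARS (0.04), and a common scaling factor moves both edges of it. The 9 calls are 45.0% of the cytosolic genes, where 47.6% of all kept genes were called lower, and the 4 rises are 20.0%, where 18.8% were called higher. Both shares are near the background, so the counts alone say nothing particular of these genes.

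After median-ratio scaling the same 9 were called lower, 45.0% of the cytosolic genes, where 33.6% of all kept genes were. The other 11, set apart by their own calls, were all called higher under this scaling. They are 55.0% of the cytosolic genes, where 33.2% of all kept genes were called higher. The 9 calls held in each of the 14 alternatives tried. The median log2 fold change of the 20 cytosolic genes was 0.04, against -0.27 over all kept genes (0.35 against 0.01 after median-ratio scaling).

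**Figure D1:**
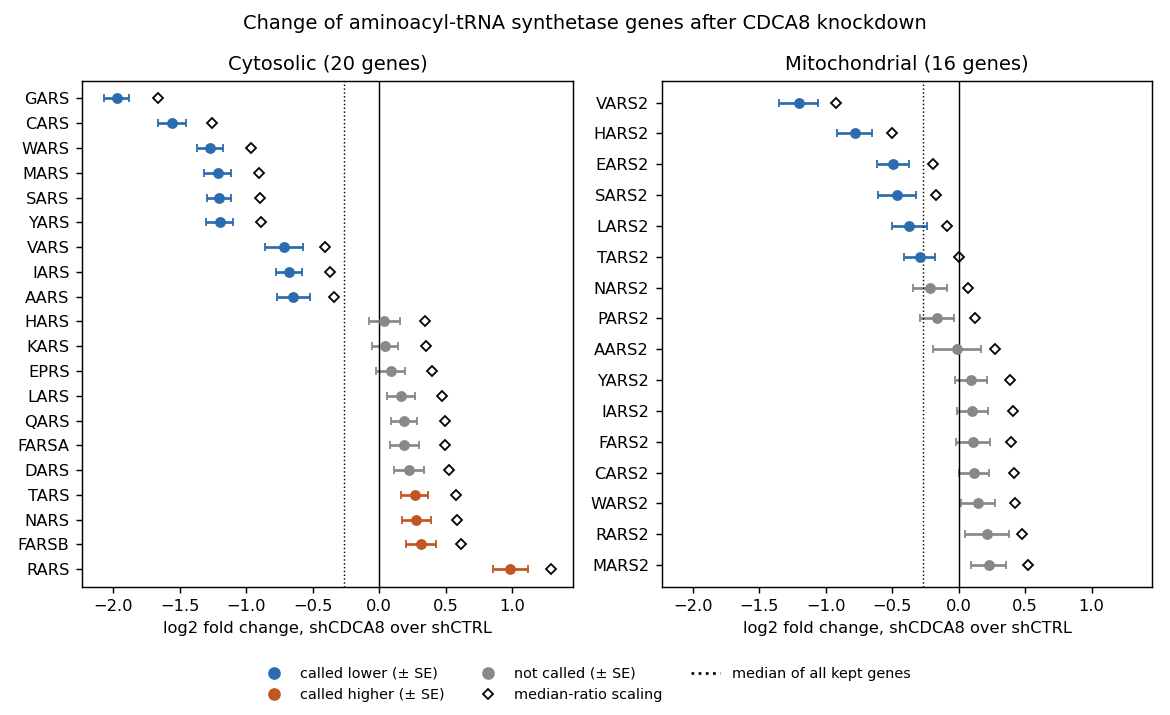
Log2 fold change (shCDCA8 over shCTRL, log2(RPM + 1) scale) of each synthetase gene with its SE from limma (n = 2 libraries against 2), cytosolic genes left and mitochondrial genes right. Filled circles are deposited RPM, open diamonds median-ratio scaled values and the dotted line the median of all kept genes (-0.27). The 9 cytosolic genes that fell lie between -1.98 and -0.65, and the other 11 lie between 0.04 and 0.99.

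GARS, which charges glycine in the cytosol and in mitochondria, had 64.2 and 62.5 RPM in the shCDCA8 libraries and 247 and 257 RPM in the shCTRL libraries. Its log2 fold change was -1.98 ± 0.0919 (SE, n = 2 against 2, limma adjusted p = 1.78e-08), and only 1.55% of kept genes had a lower one. CARS, the cysteine enzyme, had 22.1 and 21.8 RPM in shCDCA8 and 64.6 and 68.9 RPM in shCTRL (-1.56 ± 0.106, adjusted p = 2.59e-07). In both genes the libraries of a group lay close together and the groups were far apart.

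A second tier of 4 genes stood at about the same change. WARS, the tryptophan enzyme, had 50.8 and 52.3 RPM in shCDCA8 and 126 and 126 RPM in shCTRL (-1.27 ± 0.0956). MARS, the methionine enzyme that also supplies the initiator transfer RNA, had 54.3 and 59.9 RPM against 128 and 140 RPM in shCTRL (-1.22 ± 0.102). SARS, which charges serine and, before selenocysteine is made, the selenocysteine transfer RNA, had 94.8 and 90.6 RPM in shCDCA8 and 209 and 221 RPM in shCTRL (-1.21 ± 0.0923). YARS, the tyrosine enzyme, stood at 46.3 and 47.3 RPM in shCDCA8 and 104 and 114 RPM in shCTRL (-1.20 ± 0.1). Every shCDCA8 value of these 4 genes was below every shCTRL value, and limma adjusted p lay between 5.75e-07 and 1.23e-06. Groups did not overlap in 83.2% of all kept genes, so here and below a lack of overlap alone sets no gene apart.

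The falls of VARS, IARS and AARS were smaller. VARS, the valine enzyme, had 59.0 and 78.4 RPM in shCDCA8 and 101 and 126 RPM in shCTRL (-0.72 ± 0.142, adjusted p = 0.000806). IARS, the isoleucine enzyme, had 68.8 and 70.2 RPM in shCDCA8 and 110 and 114 RPM in shCTRL (-0.68 ± 0.0952, adjusted p = 6.2e-05). AARS, the alanine enzyme, had 40.5 and 46.2 RPM in shCDCA8 and 60.8 and 76.6 RPM in shCTRL (-0.65 ± 0.127, adjusted p = 0.000755). The groups did not overlap in any of the 3, although 26.1% to 29.5% of kept genes had a lower fold change than these, a position within the bulk of the table. After median-ratio scaling they stood at -0.41, -0.37 and -0.34.

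Among the genes that did not fall, RARS, the arginine enzyme, stood apart. It had 55.5 and 43.0 RPM in shCDCA8 and 24.7 and 23.6 RPM in shCTRL, a log2 fold change of 0.99 ± 0.13 (adjusted p = 3.89e-05), above 96.7% of kept genes. Its shCDCA8 libraries differed from each other more than its shCTRL libraries did, and both were above shCTRL. The call held in all 14 alternatives.

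Smaller rises were called for 3 genes. FARSB, a subunit of the tetrameric phenylalanine enzyme, had 40.1 and 36.1 RPM in shCDCA8 and 30.4 and 30.3 RPM in shCTRL (0.31 ± 0.11, adjusted p = 0.0242). NARS, the asparagine enzyme, had 58.1 and 49.4 RPM in shCDCA8 and 44.5 and 43.5 RPM in shCTRL (0.28 ± 0.112, adjusted p = 0.0431). TARS, the threonine enzyme, had 116 and 102 RPM in shCDCA8 and 90.3 and 90.4 RPM in shCTRL (0.27 ± 0.0997, adjusted p = 0.033). Each of the 3 lost its call when shCTRL replicate 1, shCTRL replicate 2 or shCDCA8 replicate 1 was left out. In such a fit the group left with 1 library gives no spread of its own. The spread used is, as in the main fit, drawn towards that of genes at a similar level. A lost call therefore need not mean a smaller fold change, nor a kept call a small spread between libraries. In the order FARSB, NARS and TARS, leaving out shCDCA8 replicate 1 gave 0.24, 0.17 and 0.18 with limma adjusted p of 0.196, 0.364 and 0.277. Dropping shCTRL replicate 1 gave 0.32, 0.29 and 0.26 (adjusted p between 0.0683 and 0.0958), and dropping shCTRL replicate 2 gave 0.31, 0.26 and 0.27 (adjusted p between 0.0757 and 0.126), close to the values with all 4 libraries.

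The remaining 7 cytosolic genes were not called in deposited RPM and were called higher after median-ratio scaling. FARSA, the partner of FARSB, had 80.3 and 90.9 RPM in shCDCA8 and 69.9 and 80.0 RPM in shCTRL (0.19, adjusted p = 0.145). QARS, the glutamine enzyme, stood at 108 and 116 RPM in shCDCA8 and 96.4 and 99.6 RPM in shCTRL (0.19). DARS, the aspartate enzyme, had 26.6 and 24.6 RPM in shCDCA8 and 21.5 and 22.1 RPM in shCTRL (0.22). In FARSA, QARS and DARS, as in LARS, the leucine enzyme (51.7 and 48.4 RPM against 43.2 and 46.0 RPM in shCTRL, 0.16), the lowest shCDCA8 value was still above the highest shCTRL value. In FARSA this rested on 80.3 against 80.0 RPM, and 83.2% of all kept genes likewise showed no overlap.

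The groups overlapped in KARS, EPRS and HARS. KARS, the lysine enzyme shared by both compartments, had 102 and 96.3 RPM in shCDCA8 and 93.8 and 98.2 RPM in shCTRL (0.04, adjusted p = 0.713). EPRS, a fusion of the glutamate and proline enzymes, had 51.6 and 55.1 RPM in shCDCA8 and 53.5 and 47.0 RPM in shCTRL (0.09, adjusted p = 0.498). HARS, the histidine enzyme, had 40.1 and 42.7 RPM in shCDCA8 and 36.8 and 44.2 RPM in shCTRL (0.04, adjusted p = 0.798). Of the 2 genes that serve both compartments, GARS therefore fell and KARS was not called, and the difference between them was not tested.

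**Figure D2:**
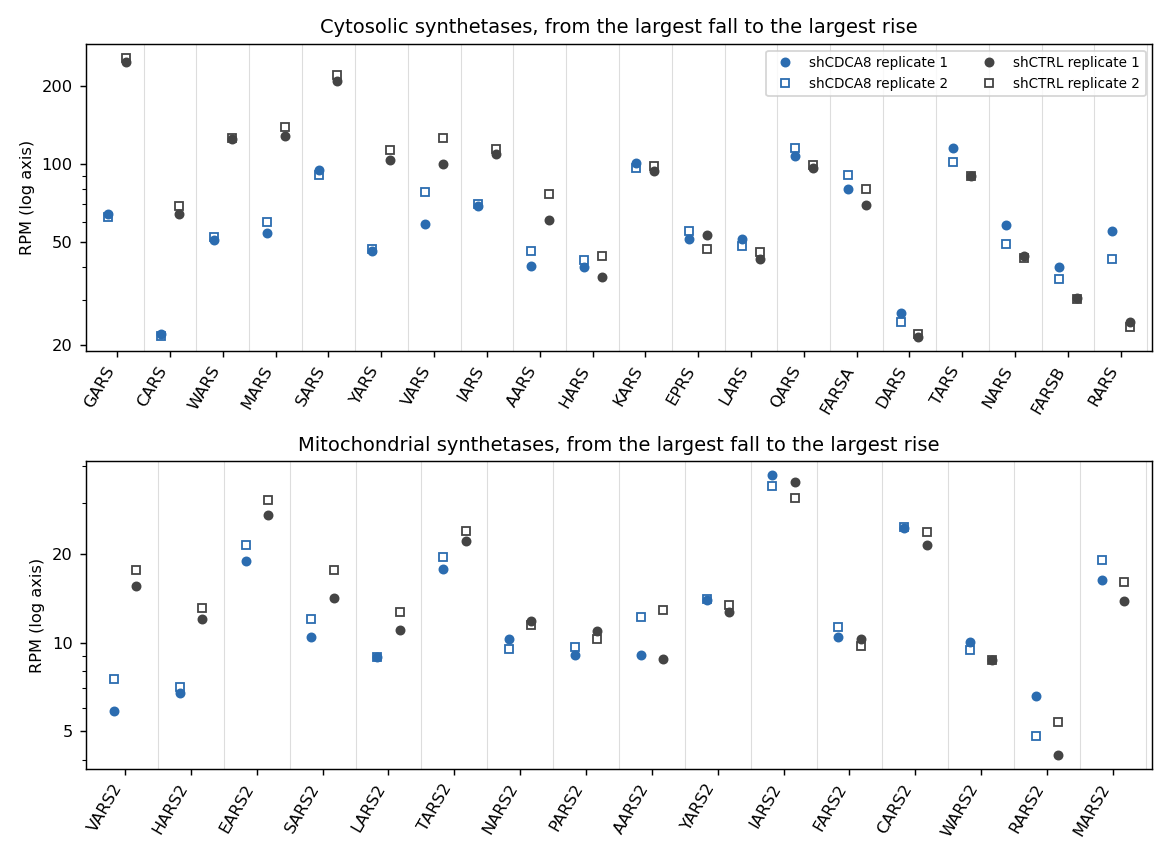
RPM of every synthetase gene in each library on log axes, shCDCA8 in blue left of shCTRL in dark grey, filled circles for replicate 1 and open squares for replicate 2. From GARS to AARS every blue point lies below both grey points of its gene, and RARS shows the reverse.

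Summed over the 9 genes that fell, the libraries held 501 and 529 RPM in shCDCA8 and 1150 and 1243 RPM in shCTRL. Summed over the other 11, they held 729 and 704 RPM in shCDCA8 and 605 and 625 RPM in shCTRL. These genes were grouped by their own calls, so the sums are a description. All 20 together gave 1230 and 1234 RPM in shCDCA8 and 1755 and 1869 RPM in shCTRL.

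The C/EBP-ATF elements printed above occurred on both sides of this split. Of the 9 genes that fell, 7 had a promoter in the table and 4 of these, AARS, CARS, IARS and MARS, held the element. Of the 11 that did not fall, 9 had a promoter and 2, NARS and TARS, held it, in both cases just after the start site. In CARS and MARS, which fell, the element began at -2 and -4 and ran across the start site. GARS, SARS and WARS fell with no match in this window, which says only that these letters are not in it.

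In vertebrate cells, 8 of these enzymes are held in the multisynthetase complex with the scaffold proteins AIMP1, AIMP2 and EEF1E1. This grouping, and that by catalytic class below, was taken from textbook knowledge after the values were seen. In the complex, IARS and MARS fell, RARS rose, and DARS, EPRS, KARS, LARS and QARS were not called (2 lower and 1 higher of 8, median 0.12). After median-ratio scaling those 5 were called higher too, which makes 2 lower and 6 higher (median 0.43). Of the 12 cytosolic genes outside the complex, 7 fell and 3 rose (median -0.68), and 7 were lower and 5 higher after median-ratio scaling (median -0.37). Over all kept genes 47.6% were called lower and 18.8% higher, or 33.6% and 33.2% after that scaling, and the difference between the groups was not tested. AIMP1 rose, with 18.1 and 15.3 RPM in shCDCA8 and 9.23 and 7.49 RPM in shCTRL (0.92 ± 0.143, adjusted p = 0.000138). AIMP2 had 47.6 and 53.4 RPM in shCDCA8 and 53.4 and 55.0 RPM in shCTRL (-0.10), and EEF1E1 had 2.32 and 1.84 RPM in shCDCA8 and 1.58 and 1.91 RPM in shCTRL (0.17). Neither was called in deposited RPM, and EEF1E1 was called higher after median-ratio scaling. By fold of the catalytic domain, 6 of 9 class I genes fell and 1 rose (median -0.72), and 3 of 10 class II genes fell and 3 rose (median 0.12), leaving out EPRS, which joins a domain of each class. After median-ratio scaling 6 class I genes were lower and 3 higher (median -0.41), and 3 class II genes were lower and 7 higher (median 0.42), to be read against the same shares of all kept genes.

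Fold changes of the mitochondrial synthetases spanned a narrower range, from -1.20 to 0.22. Of 16 genes, VARS2, HARS2, EARS2, SARS2, LARS2 and TARS2 fell and none rose, with none higher at an unadjusted p under 0.05 either. The 6 calls are 37.5% of the genes, below the 47.6% of all kept genes, and their median log2 fold change was -0.09. After median-ratio scaling 2 fell and 7 rose (12.5% against 33.6% and 43.8% against 33.2% of all kept genes), with a median of 0.19, and edgeR and DESeq2 each called 7 higher. The spread of the 2 sets was not compared by a test.

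VARS2, the mitochondrial valine enzyme, had 5.88 and 7.54 RPM in shCDCA8 and 15.6 and 17.8 RPM in shCTRL (-1.20 ± 0.145, adjusted p = 1.96e-05). HARS2, the histidine enzyme, had 6.74 and 7.05 RPM in shCDCA8 and 12.0 and 13.2 RPM in shCTRL (-0.78 ± 0.129, adjusted p = 0.000214). These 2 falls were called in all 14 alternatives, and in both genes every shCDCA8 value lay below every shCTRL value.

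The other 4 falls rested on the scaling. EARS2, which loads glutamate, had 19.0 and 21.5 RPM in shCDCA8 and 27.2 and 30.7 RPM in shCTRL (-0.49 ± 0.122, adjusted p = 0.00351). SARS2, the serine enzyme, had 10.5 and 12.0 RPM in shCDCA8 and 14.3 and 17.7 RPM in shCTRL (-0.46 ± 0.14, adjusted p = 0.0116). Neither was called after median-ratio scaling (-0.19 and -0.17). LARS2, the leucine enzyme, had 8.94 and 8.97 RPM in shCDCA8 and 11.1 and 12.7 RPM in shCTRL (-0.37 ± 0.13, adjusted p = 0.0243). TARS2, the threonine enzyme, had 17.9 and 19.6 RPM in shCDCA8 and 22.2 and 24.1 RPM in shCTRL (-0.29 ± 0.118, adjusted p = 0.0444). After median-ratio scaling LARS2 stood at -0.09 and TARS2 at 0.0041, with no call.

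With 1 library left out, when the group of 1 again borrows its spread, 3 of these genes were not always called. For SARS2 no call was made without shCTRL replicate 2 (-0.32, limma adjusted p = 0.0999), nor when shCDCA8 replicate 1 was the library dropped (-0.37, adjusted p = 0.07). LARS2 lost its call without shCTRL replicate 2 (-0.28, adjusted p = 0.15) and once either shCDCA8 library was dropped (-0.37 each; adjusted p = 0.0856 without replicate 1, 0.0781 without replicate 2), where its fold change was that of all 4 libraries. TARS2 lost its call without any 1 of the 4 libraries, with values from -0.36 to -0.23 and adjusted p of 0.054 to 0.245.

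The 10 mitochondrial genes without a call had log2 fold changes from -0.22 to 0.22. NARS2 (asparagine) had 10.3 and 9.53 RPM in shCDCA8 and 11.9 and 11.5 RPM in shCTRL, and PARS2 (proline) had 9.07 and 9.66 RPM against 10.9 and 10.3 RPM in shCTRL. In these 2 the shCDCA8 values were the lower ones, and in neither was a call made under any alternative. AARS2 (alanine) had 9.11 and 12.2 RPM in shCDCA8 and 8.84 and 12.9 RPM in shCTRL, so replicates differed more than groups, and it was never called.

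The last 7 were called higher after median-ratio scaling. MARS2 (methionine) had 16.4 and 19.1 RPM in shCDCA8 and 13.9 and 16.2 RPM in shCTRL (0.22), and CARS2 (cysteine) had 24.6 and 24.7 RPM in shCDCA8 and 21.6 and 23.8 RPM in shCTRL (0.12). FARS2 (phenylalanine), WARS2 (tryptophan) and YARS2 (tyrosine) stood at 0.11, 0.14 and 0.09, with no overlap between groups. RARS2 (arginine), at 6.62 and 4.81 RPM in shCDCA8 and 4.16 and 5.40 RPM in shCTRL, and IARS2 (isoleucine), at 37.1 and 34.2 RPM in shCDCA8 and 35.3 and 31.1 RPM in shCTRL, overlapped. Over both sets the groups did not overlap for 30 of 36 genes (83.3%), against 83.2% of all kept genes.

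**Figure D3:**
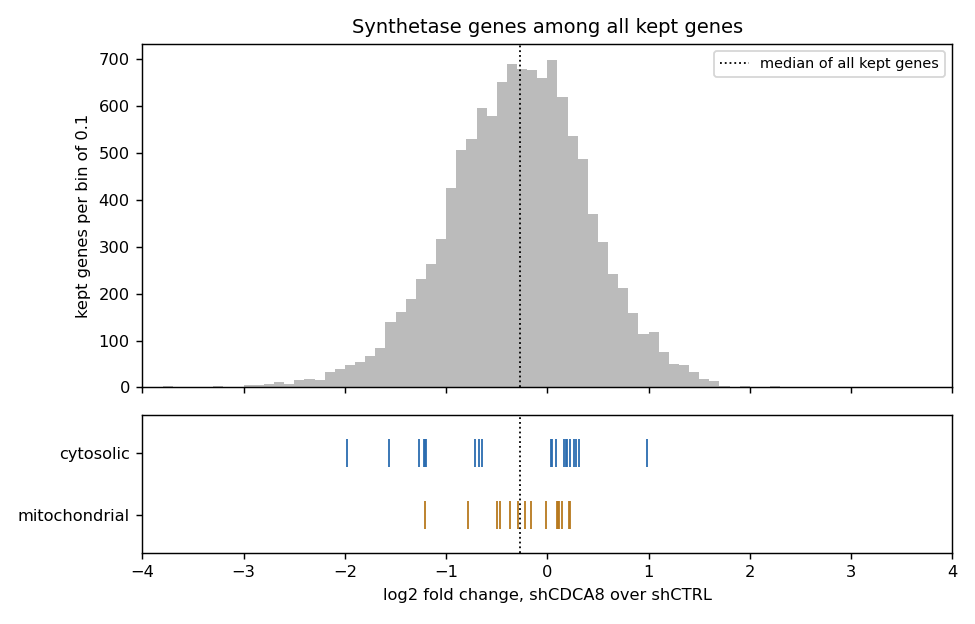
Histogram of the log2 fold change (shCDCA8 over shCTRL) of the 11833 kept genes in bins of 0.1, with a tick below for each of the 20 cytosolic and 16 mitochondrial synthetase genes. The cytosolic ticks fall on both sides of the dotted median of all kept genes (-0.27), with none between -0.65 and 0.04, and the mitochondrial ticks run from -1.20 to 0.22.

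A ratio of a cytosolic gene to the mitochondrial gene for the same amino acid, taken within a library, does not move with the library's total. The change of this ratio was compared for 16 pairs, with EPRS set against both EARS2 and PARS2. It was lower in both shCDCA8 libraries than in both shCTRL libraries for 7 pairs, higher for 8 and overlapping for FARSA over FARS2. Single genes did not overlap in 83.2% of all kept genes, and no such share was computed for pairs of other genes. With 2 libraries against 2 the smallest p that an exact two-sided permutation test allows is 0.333, which each of the 15 pairs without overlap reached, so no pair can pass 0.05.

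The lowest value was that of the cysteine pair, with a CARS-to-CARS2 ratio of 0.899 and 0.883 in shCDCA8 and 2.99 and 2.90 in shCTRL (change of the log2 ratio -1.72). The tryptophan ratio WARS to WARS2 was 5.05 and 5.51 in shCDCA8 and 14.4 and 14.4 in shCTRL (-1.45). Changes of the log2 ratio for MARS over MARS2 (-1.47) and YARS over YARS2 (-1.32) were alike in size, and IARS, SARS and AARS followed at -0.79, -0.71 and -0.64. In these 7 pairs the cytosolic gene was among those that fell. SARS and SARS2 both fell, and the ratio shows SARS lower by more than SARS2.

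In the opposite direction, the HARS-to-HARS2 ratio was 5.95 and 6.06 in shCDCA8 and 3.05 and 3.36 in shCTRL (0.91). The VARS-to-VARS2 ratio was 10.0 and 10.4 in shCDCA8 and 6.44 and 7.09 in shCTRL (0.60), although both genes fell. RARS over RARS2 (0.76), EPRS over EARS2 (0.60), TARS over TARS2 (0.58), LARS over LARS2 (0.57), NARS over NARS2 (0.52) and EPRS over PARS2 (0.27) were also higher in both shCDCA8 libraries. Ratios of RPM are not corrected for length, so only their change between groups can be read.

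**Figure D4:**
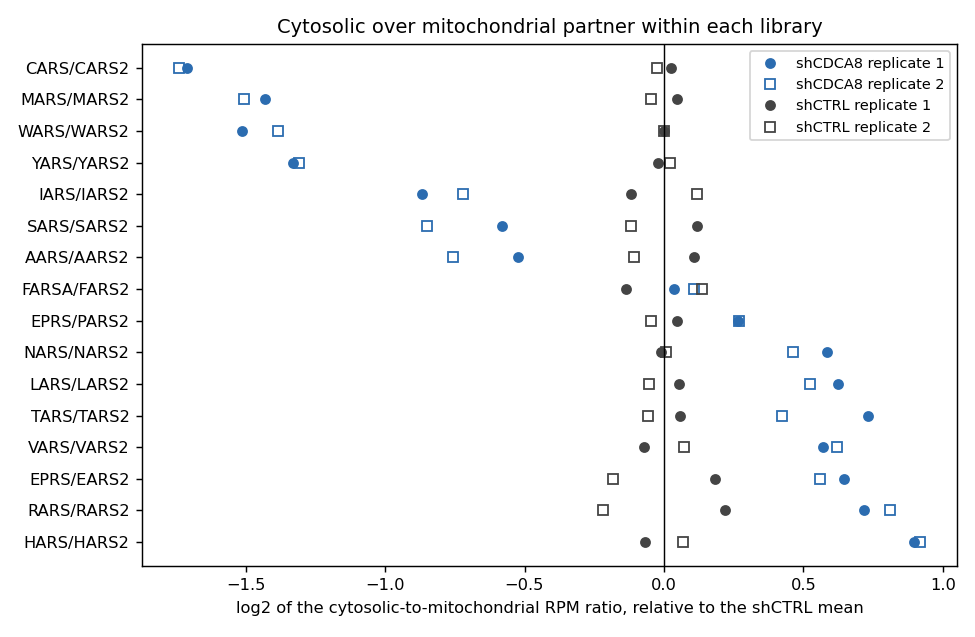
Log2 of the cytosolic-to-mitochondrial RPM ratio of each pair in each library, relative to the mean of the 2 shCTRL libraries. Blue points are shCDCA8 and grey points shCTRL, with filled circles for replicate 1 and open squares for replicate 2. Blue points of 7 pairs lie left of both grey points, those of 8 pairs lie right of them, and those of FARSA/FARS2 overlap.

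HARS and HARS2 are neighbours transcribed away from each other on chromosome 5, with 84 bases between their start sites in RefSeq (GRCh38.p14). The stretch between them is shown because HARS2 fell while HARS, at a log2 fold change of 0.04, was not called. It is given on the plus strand, 5′ to 3′ from the HARS end to the HARS2 end, and holds no C/EBP-ATF element and no E-box. Whether counting used the strand is not stated, so reads near this shared start could be placed in either gene.
HARS to HARS2, chr5:140691371-140691454, plus strand: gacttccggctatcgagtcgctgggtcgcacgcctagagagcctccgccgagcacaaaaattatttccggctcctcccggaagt

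Genes that act beside the synthetases were described from lists of known pathway members. Their counts stand against 47.6% of all kept genes called lower and 18.8% called higher. Counts after median-ratio scaling stand against 33.6% called lower and 33.2% called higher. Mitochondrial glutamine transfer RNA is made by EARS2 followed by an amidotransferase of QRSL1, GATB (PET112 in the table) and GATC, and its subunits moved in opposite directions. PET112 rose, with 13.6 and 12.7 RPM in shCDCA8 and 5.80 and 5.82 RPM in shCTRL (1.05), and QRSL1 rose by 0.41. GATC fell, with 12.6 and 13.1 RPM in shCDCA8 and 22.8 and 24.0 RPM in shCTRL (-0.82). MTFMT, which formylates the mitochondrial initiator transfer RNA, fell to 7.06 and 7.52 RPM in shCDCA8, against 18.6 and 17.9 RPM in shCTRL (-1.22, adjusted p = 5.87e-06). All 4 calls were also made after median-ratio scaling.

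Both kept proofreading genes, DTD1 (-0.69), which removes D-amino acids from charged transfer RNA, and DTD2 (-0.61), fell, also after median-ratio scaling. Of 6 cytosolic elongation factors 4 fell and none rose (median -0.55), among them EEF2 (2029 and 2290 RPM in shCDCA8, 4147 and 4346 RPM in shCTRL, -0.98), EEF1A1 (-0.82), which delivers charged transfer RNA to the ribosome, and EEF1G (-0.72). After median-ratio scaling 3 fell and 1 rose. Reads of EEF1A1 can be shared with its many processed pseudogenes, so its value is uncertain. Of 8 mitochondrial translation factors 4 rose and none fell (median 0.40), with GFM2 (29.2 and 24.5 RPM in shCDCA8, 11.3 and 10.9 RPM in shCTRL, 1.20), MTIF2 (1.11) and GFM1 (0.93) lowest in p. After median-ratio scaling 6 rose.

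Of 30 genes of transfer RNA transcription and maturation, 13 fell and 6 rose (median -0.22), and after median-ratio scaling 7 fell and 10 rose. The RNA polymerase III subunit POLR3D (-1.04) and the splicing endonuclease subunit TSEN15 (-1.11) fell, and GTF3C3 of the factor TFIIIC rose (1.28). XPOT, the exporter of transfer RNA, named here outside the rule for named genes after its values were seen, fell to 93.8 and 97.4 RPM in shCDCA8, against 169 and 137 RPM in shCTRL (-0.66, adjusted p = 0.000244). Of 12 mitochondrial transfer RNA maturation genes 2 fell and 3 rose (median 0.14). PUS1 (-0.55) and TRMT61B (-0.50) fell and CDK5RAP1 (0.42) rose, and after median-ratio scaling none fell and 8 rose.

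ATF4 had 131 and 125 RPM in shCDCA8 and 662 and 677 RPM in shCTRL (-2.38 ± 0.0858, adjusted p = 3.21e-09). Of 13 integrated stress response genes 8 fell and 1 rose (median -0.67), and 7 fell and 3 rose after median-ratio scaling. TRIB3 (-2.07), CEBPB (-1.75) and EIF2AK4 (-0.67), which encodes GCN2, were among the falls. WARS is also known as an interferon-gamma-induced gene. Of 10 genes of that response only 3 passed the filter, of which 2 rose and 1 fell (2 and 0 after median-ratio scaling). IRF1, a transcription factor of the response, rose (1.42 and 1.56 RPM in shCDCA8, 0.882 and 0.771 RPM in shCTRL, 0.44), and TAP1, a peptide transporter, fell (-0.30, and -0.01 without a call after median-ratio scaling).

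The label of the cells was checked against markers. All 10 luminal prostate markers passed the filter, and 6 fell and 2 rose (5 and 4 after median-ratio scaling). Among the falls, KLK3 had 364 and 438 RPM in shCDCA8 and 1454 and 1477 RPM in shCTRL (-1.87), and KLK2 stood at -1.58. KRT8 (0.74) and KRT18 (0.49) rose, and FOLH1 and EPCAM were called higher only after median-ratio scaling. These last genes are named outside the rule for named genes, after their values were seen. Of 17 markers of fibroblasts, leukocytes, endothelium, basal epithelium and neuroendocrine cells, 13 were matched in the table and 4 passed the filter. The summed level of the 13 was 8.40 and 9.68 RPM in shCDCA8 and 20.6 and 24.7 RPM in shCTRL. Of the 4, COL1A1 (-1.30), VWF (-1.40) and PDGFRB (-0.76) fell, also after median-ratio scaling. CD3E was at 0 in both shCDCA8 libraries, and CD14, the highest of the matched leukocyte markers, reached 0.128 RPM in 1 shCTRL library. The part of these markers in the changes of the synthetase genes was not tested.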

How the data were processed

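PolyA RNA was profiled in 2 shCDCA8 and 2 shCTRL libraries; per the labels' protocols BGI sequenced them on DNBseq, and an Illumina preparation is also described without naming its libraries. The authors deposited RPM values, 1 column per library. The submitters' processing notes list TopHat, HTSeq, edgeR, cutadapt and hg19. No annotation, strand setting or divisor was given in the sources used here, so reads of overlapping or antisense genes cannot be told apart. The values gave back whole reads (100% within 0.01 of a whole number), with divisors of 46709612 to 55289855 reads.

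Log2(RPM + 1) was fitted in R 4.3.3 with limma 3.58.1 (eBayes with trend, two-sided) for genes reaching 1 RPM in 2 or more libraries. Calls required a p-value under 0.05 after Benjamini-Hochberg adjustment over the 11833 genes kept; "rose" and "fell" mark calls. This scale understates changes of low genes. Replicate libraries were more different than counting error gives (chi-square per degree of freedom of 10.6 for shCDCA8, 8.50 for shCTRL). The recovered reads were also tested with edgeR 4.0.16, with 7807 calls, and with DESeq2 1.42.0. In a simulation of 11604 genes, 62.7% of genes changed 1.5-fold were recovered, 93.8% at 2-fold and 100% at 4-fold, with 4 calls among 11408 unchanged genes. It changed 67, 65 and 64 genes at these folds and held no shift of the whole table. In the data 7852 genes were called and the table was shifted, so these rates need not hold there.

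The members and lists were chosen with earlier results of these data known. Named are CDCA8, all synthetases, the complex scaffold and mitochondrial helper genes, ATF4, EIF2AK4 and the 3 genes of smallest p in each further list; some genes under this rule are not reported here. Renamed genes were matched by older symbols; AARSD1 and 4 markers are not analysed here. Promoters are from RefSeq, GRCh38.p14.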

Additional observations from a re-analysis of the deposited data

How the results depend on the processing

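The 14 alternatives changed which genes other than the 9 falling cytosolic synthetases were called. Under median-ratio scaling, quantile normalization, scaling to the sum of the gene rows, edgeR and DESeq2, 11 cytosolic genes were called higher, and 2 mitochondrial genes lower and 7 higher. These settings remove the shift of the whole table. Under them, in that order, the cytosolic median was 0.35, 0.28, 0.36, 0.35 and 0.35 and the mitochondrial median 0.19, 0.16, 0.21, 0.21 and 0.21. Without the filter 2 cytosolic genes were called higher. With the replicate block 7 cytosolic genes and 1 mitochondrial gene were called higher, 8901 genes in all against 7852 without it. Same-numbered libraries deviated together (r = 0.31 across genes), but the labels do not say that a number marks a shared culture or day. Leaving out 1 library, 1 to 4 cytosolic genes were called higher and 3 to 5 mitochondrial genes lower, and the medians ran from -0.042 to 0.043 (cytosolic) and from -0.19 to -0.053 (mitochondrial).

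Genes that turned in sign were not called where they turned. In the same order of 5 settings AARS2 stood at 0.27, 0.23, 0.28, 0.29 and 0.29, NARS2 at 0.068, 0.036, 0.081, 0.069 and 0.075, and PARS2 at 0.12, 0.10, 0.13, 0.12 and 0.13. TARS2, lower in deposited RPM, stood at 0.0041 with median-ratio scaling, 0.0176 with scaling to the gene rows and 0.0047 with DESeq2. With 1 library left out EPRS ran from -0.0039 to 0.18, HARS from -0.093 to 0.17 and AARS2 from -0.27 to 0.23. Of the recomputed member values, 369 kept direction and call, 74 gained a call, 38 lost it and 23 turned. The cause was not tested. All 36 genes had at least 222 reads in each library.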
